A study of Rattus norvegicus with 16 samples.

Results

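The genes described here are 3 proton-sensing receptors (Gpr4, Gpr65 and Gpr132) and 4 acid-sensing ion channels (Asic1, Asic2, Asic3 and Asic4) of the rat. They were chosen by name, as the entries of the count table whose gene symbol is in this list, and each symbol had a single entry. The 7 members stand among 32623 genes of the table, of which 22082 had a count in at least 1 library. RNA was sequenced from 2 cell lines of normal rat kidney, the proximal tubule-like epithelial line NRK-52E and the fibroblast line NRK-49F. The lines shared their medium in co-culture, NRK-52E on filter inserts and NRK-49F on the bottom of the well. After 24 h without serum, they were kept for 48 h in medium of pH 7.4 (control) or pH 6.0 (acidosis). Each of the 4 groups (NRK-52E at pH 7.4, NRK-52E at pH 6.0, NRK-49F at pH 7.4 and NRK-49F at pH 6.0) had 4 libraries, which are named here by the number in their label. No genetic change or drug was named in the labels of any group, and each cell type was represented by a single line. The pH values used here are those of the treatment protocol, which the library labels shorten to 7 and 6.

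Cells register acid outside the membrane through a small number of dedicated proteins. The proton-sensing receptors are G protein-coupled receptors whose extracellular histidines take up protons. Gpr4 and Gpr65 act mainly through Gs and cAMP, while Gpr132 is a relative by sequence whose response to protons is weak and which is also known as a receptor for lipids. Acid-sensing ion channels belong to the family of the epithelial sodium channel, assemble as trimers and let sodium into the cell when protons bind. They are best known from neurons, and Gpr4 is known in the kidney for its part in acid excretion.

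The libraries held between 16201084 and 34784862 counted fragments. Levels are given as FPM, fragments per 1000000 after TMM normalization over the 16 libraries, and 1 count corresponded to between 0.0312 and 0.0663 FPM. A gene with a count of 0 in all libraries of a group could have had up to 0.0298 to 0.0389 FPM there, taking 3 counts over the group as the limit, which covers counting error only. Nothing in the labels says that libraries of a group came from separate cultures, so p-values measure the spread between these libraries. In bulk RNA, fewer cells that carry a transcript and less transcript per cell cannot be told apart. Exon lengths on the genome build of the counts were not used here, so levels are compared between groups for a single gene. Where the gene with the highest FPM of a list is named, its length is not corrected for and no order between genes is meant.

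The labelled cell types were checked against marker lists of 10 genes each. NRK-49F cells had the fibroblast genes Col1a1 (6256 ± 425 FPM at pH 7.4, SD, n = 4), Pdgfra (395 FPM) and Twist1 (95.4 FPM), while Thy1 was at 0 in all 16 libraries. NRK-52E cells had Ocln (41.5 ± 1.97 FPM at pH 7.4), Krt7 (36.9 FPM) and Tjp3 (17.4 FPM), whose means in NRK-49F were at or below 1.33 FPM. Krt8 was lower in NRK-52E than in NRK-49F at pH 7.4 (434 and 855 FPM) and higher at pH 6.0 (311 and 206 FPM), without overlap at either pH. Other epithelial markers were not found in NRK-52E at such levels: Cdh1 had 1.63 FPM at pH 7.4, Epcam 0.0223 FPM, and Esrp1 had no count. Col3a1, on the fibroblast list, had 6267 FPM in NRK-52E at pH 7.4 and 462 FPM in NRK-49F. Of the proximal tubule list, Slc34a1 and Hnf4a had no count in NRK-52E and 7 of 10 genes had a mean below 1 FPM there. The highest FPM of that list in NRK-52E was that of Aqp1, with 34.6 FPM at pH 7.4.

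Some marker sums run against the labels. The summed epithelial level, mostly Krt8, was 494 to 564 FPM in NRK-52E and 796 to 955 FPM in NRK-49F at pH 7.4, and the direction turned at pH 6.0, with 352 to 431 FPM and 200 to 221 FPM. The summed proximal tubule level over both pH values was 25.5 to 53.5 FPM in NRK-52E and 130 to 548 FPM in NRK-49F, where Ggt1 had 113 FPM at pH 7.4 and 412 FPM at pH 6.0. Single genes such as Col1a1, Pdgfra, Ocln and Krt7 therefore separate the lines, while the summed proximal tubule list at both pH values and the summed epithelial list at pH 7.4 were higher in the fibroblast line.

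Differentially expressed genes (DEGs) are those with a Benjamini-Hochberg adjusted p below 0.01 in both edgeR and DESeq2 over all genes tested, and log2 fold changes, standard errors and adjusted p-values below are from edgeR unless DESeq2 is named. Acidosis gave a large background of DEGs. In NRK-52E, 28.2% of the 13735 genes tested were higher and 28.5% lower at pH 6.0. In NRK-49F, 18.4% of 13339 genes were higher and 19.4% lower. With library totals in place of TMM, the NRK-52E DEGs divided into 2899 higher and 4815 lower, in place of 3879 and 3921. Of the 7 members, 3 passed the filter on low counts in NRK-52E (Asic1, Asic3 and Asic4) and 1 was a DEG, Asic1. In NRK-49F, Asic1 was the only member to pass the filter and was a DEG. At these background shares, the number of DEGs among the members is not a result about them.

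Among the receptors, Gpr4 was found in NRK-52E cells at a low level. At pH 7.4 its counts were 16 in library 1, 21 in library 2, 8 in library 5 and 8 in library 6. At pH 6.0 they were 4 in library 3, 8 in library 4, 7 in library 7 and 4 in library 8. In FPM the means were 0.585 ± 0.265 at pH 7.4 and 0.266 ± 0.0688 at pH 6.0 (SD, n = 4). Libraries 1 and 2 were the highest, and the groups overlapped, since library 5 with 0.336 FPM lay below library 4 with 0.351 FPM. The 53 counts at pH 7.4 and 23 at pH 6.0 gave a ratio of pH 6.0 to pH 7.4 of 0.458, with a 95% exact counting interval of 0.268 to 0.760. That interval covers counting error only, and a 2-sided exact permutation test on log2(FPM + 1) gave p = 0.0571 (n = 4 against 4), so a difference was not shown. The label of each library carries a second number, whose meaning is not given. Within number 21 the summed counts were 37 at pH 7.4 and 12 at pH 6.0, and within number 22 they were 16 and 11.

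In NRK-49F cells, Gpr4 had 2 counts in library 10, 1 count in library 15 and none in the other 6 libraries. The NRK-52E libraries lay above all NRK-49F libraries at both pH values. At pH 7.4 the ratio of NRK-52E to NRK-49F was 22.7 (95% exact counting interval 5.97 to 192), and at pH 6.0 it was 27.1 (4.39 to 1114). The exact permutation test gave p = 0.0286 at each pH (n = 4 against 4), the smallest value that this design allows. These tests of members outside the filter are not adjusted for the number of tests, 9 in all over the 4 comparisons.

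Gpr132 showed the opposite distribution. It had no count in any of the 8 NRK-52E libraries. In NRK-49F at pH 7.4 it had 3 counts in library 9 and none in libraries 10, 13 and 14, so that without library 9 the group had none. At pH 6.0 it had 8 counts in library 11, 2 in library 12, 20 in library 15 and 23 in library 16. The highest values were those of libraries 15 and 16, which were also the deepest, and they remained the highest after scaling for depth (0.645 and 0.718 FPM). The groups overlapped at their edges, with 0.133 FPM in library 12 at pH 6.0 and 0.173 FPM in library 9 at pH 7.4. The means were 0.463 ± 0.270 FPM at pH 6.0 and 0.0433 ± 0.0866 FPM at pH 7.4 (SD, n = 4). The ratio of pH 6.0 to pH 7.4 from the summed counts of 53 and 3 was 13.54, with a 95% exact counting interval of 4.39 to 67.8, and the exact permutation test gave p = 0.0571 (n = 4 against 4). Without the filter on low counts, Gpr132 was a DEG in NRK-49F with a log2 fold change of 3.44 (SE 0.929, adjusted p = 0.00544 in edgeR and 0.00834 in DESeq2). Within number 20 the summed counts were 3 at pH 7.4 and 10 at pH 6.0, and within number 21 they were 0 and 43. At pH 6.0, Gpr132 was at least 11.2-fold higher in NRK-49F than in NRK-52E, from the lower 95% counting limit in NRK-49F over 3 counts for the NRK-52E group (exact permutation p = 0.0286, n = 4 against 4).

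Gpr132 is known from leukocytes, so leukocyte markers are given beside it. Ptprc, Adgre1 and Tyrobp had no count in any library, and 9 of the 10 listed genes had a mean below 1 FPM in NRK-49F. The summed level of the list in NRK-49F was 64.3, 75.6, 99.1 and 94.8 FPM in libraries 9, 10, 13 and 14 at pH 7.4, and 226, 227, 262 and 259 FPM in libraries 11, 12, 15 and 16 at pH 6.0. The gene with the highest FPM was Cd68, a lysosomal glycoprotein, which rose from 81.8 ± 16.3 to 242 ± 19.1 FPM (SD, n = 4) and made up nearly all of the sum. Laptm5 and Fcer1g, which also passed the filter in NRK-49F, had log2 fold changes of -0.75 (SE 0.43) and -0.56 (SE 0.51). Neither was a DEG. In NRK-52E the sum lay between 3.20 and 4.95 FPM over both pH values, and there Laptm5 was also without a count. Csf1r of this list rose in NRK-52E from 0.245 to 1.07 FPM (log2 fold change 2.1, SE 0.32). This call was lost within each second number. No NRK-52E library at pH 7.4 was above 0.287 FPM, so Csf1r passed the filter through the pH 6.0 libraries. Cd3e, outside the filter there, went the other way, from 0.425 to 0.0417 FPM without overlap. Fcer1g had 1.03 and 1.04 FPM and was not a DEG.

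Gpr65 had a single count over the 16 libraries, in library 8 (NRK-52E at pH 6.0). Of the 3 receptors, NRK-52E libraries thus held counts of Gpr4, apart from the single count of Gpr65. NRK-49F libraries held counts of Gpr132, with 3 counts of Gpr4. None of the 3 receptors passed the filter on low counts with 4 libraries against 4. Within number 21, with 2 libraries against 2, Gpr132 passed and was a DEG in NRK-49F (log2 fold change 7.15, adjusted p = 0.00561 in edgeR and 0.00991 in DESeq2). The pH 7.4 libraries had no count there, so the size depends on the prior count. Gpr132 passed the filter through the pH 6.0 libraries alone, so this call is no separate support for a rise. Gpr4 in NRK-52E also passed within number 21 and was not a DEG (-1.42, adjusted p = 0.0537 in edgeR and 0.293 in DESeq2). Without the filter, Gpr4 was not a DEG for pH in NRK-52E either (-1.13, adjusted p = 0.0682 in edgeR and 0.083 in DESeq2).

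**Figure D1:**
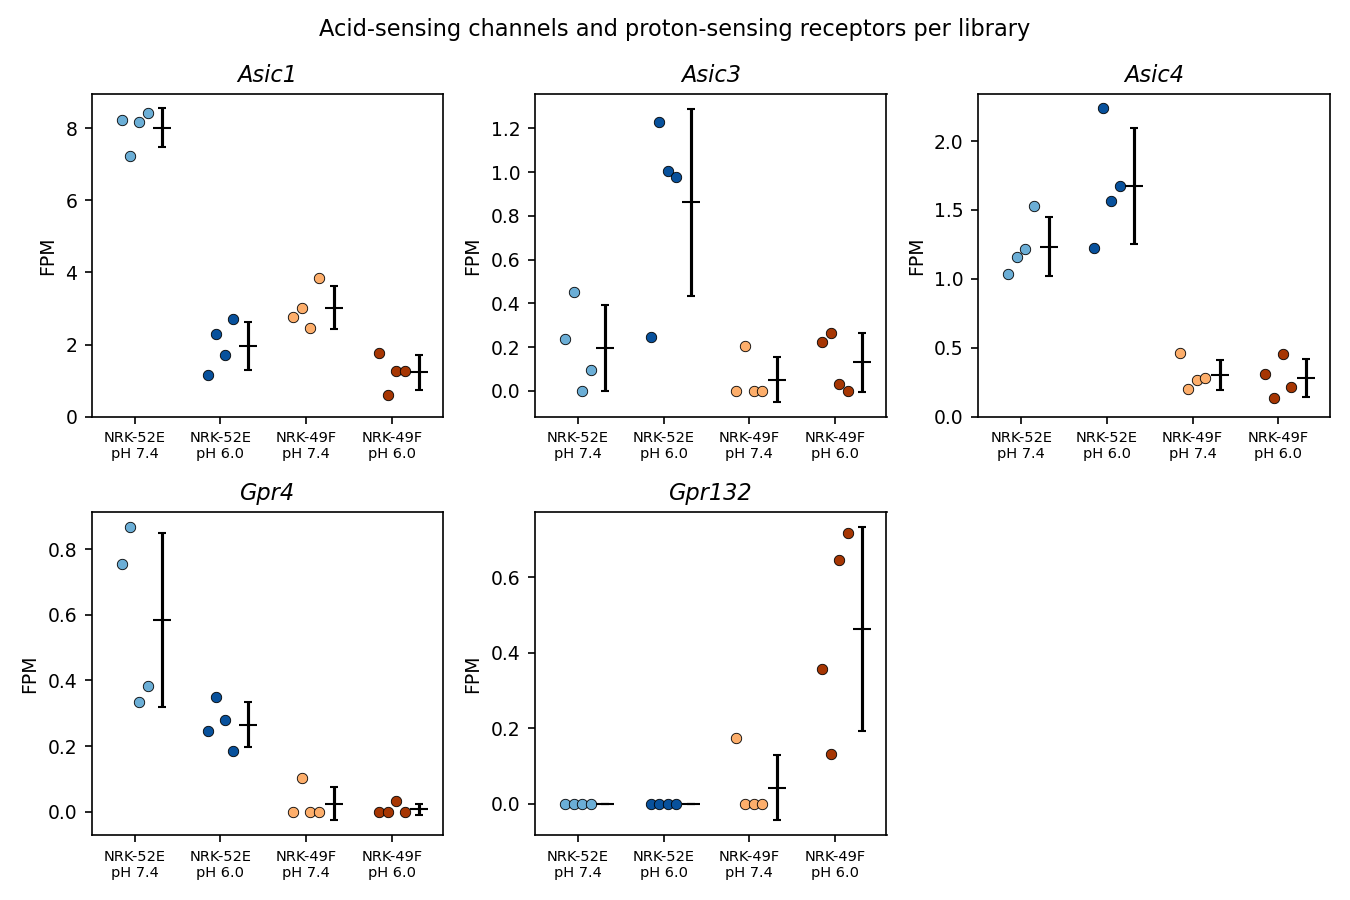
Level in FPM of 3 acid-sensing channels and 2 proton-sensing receptors in each of the 16 libraries (points), by cell line and pH on the x axis, with the group mean and SD (bar, n = 4) at the right of each group. The y axes differ between genes; Asic1 lies between 7.23 and 8.41 FPM in NRK-52E at pH 7.4 and at or below 2.70 FPM in NRK-52E at pH 6.0, while Gpr132 is at 0 in all NRK-52E libraries.

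Asic1, the channel subunit that forms proton-gated sodium channels in most neurons, was lower at pH 6.0 in both lines. In NRK-52E at pH 7.4 it had 8.24 FPM in library 1, 7.23 in library 2, 8.18 in library 5 and 8.41 in library 6. In NRK-52E at pH 6.0 it had 1.16 FPM in library 3, 2.28 in library 4, 1.73 in library 7 and 2.70 in library 8. The groups did not overlap, and the lowest control library was above the highest acidotic library by more than the range of either group. The means were 8.02 ± 0.535 and 1.97 ± 0.668 FPM (SD, n = 4), and the log2 fold change was -2.0 (SE 0.243, adjusted p = 3.23e-05 in edgeR and 6.83e-17 in DESeq2). From the summed counts, the level at pH 7.4 was 3.98-fold that at pH 6.0. All 4 libraries at pH 6.0 showed the direction, and Asic1 stayed a DEG when any 1 of the 8 libraries was left out and within each second number. The counts behind these values were 175 to 195 per library at pH 7.4 and 19 to 58 at pH 6.0.

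In NRK-49F at pH 7.4, Asic1 had 2.77 FPM in library 9, 3.02 in library 10, 2.45 in library 13 and 3.86 in library 14. In NRK-49F at pH 6.0 it had 1.78 FPM in library 11, 0.596 in library 12, 1.26 in library 15 and 1.28 in library 16. Here too the groups did not overlap, with library 14 the highest and library 12 the lowest. The means were 3.02 ± 0.604 and 1.23 ± 0.486 FPM (SD, n = 4), and the log2 fold change was -1.28 (SE 0.302, adjusted p = 0.00365 in edgeR and 0.000349 in DESeq2). This call depended on single libraries. Without library 14 the log2 fold change was -1.14 (adjusted p = 0.0149), and without library 15 it was -1.27 (adjusted p = 0.0124). With 2 libraries per pH within a second number, it was -1.20 (adjusted p = 0.0375) within 20 and -1.33 (adjusted p = 0.0359) within 21, and over all alternatives the adjusted p lay between 0.00111 and 0.0375. The direction was the same in each of these fits.

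Over the 4 groups, the mean level of Asic1 in FPM fell in the order NRK-52E at pH 7.4, NRK-49F at pH 7.4, NRK-52E at pH 6.0 and NRK-49F at pH 6.0. The first stood apart from the other 3 groups. NRK-49F at pH 7.4 (2.45 to 3.86 FPM) overlapped with NRK-52E at pH 6.0 (1.16 to 2.70 FPM), and the latter overlapped with NRK-49F at pH 6.0 (0.596 to 1.78 FPM).

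Asic3, a subunit known from sensory neurons, had few counts. In NRK-52E at pH 7.4 it had 5 counts in library 1, 11 in library 2, 0 in library 5 and 2 in library 6. At pH 6.0 it had 4 in library 3, 28 in library 4, 25 in library 7 and 21 in library 8. Libraries 4, 7 and 8 were above all control libraries, while library 3 with 0.245 FPM lay between controls. The means were 0.196 ± 0.197 FPM at pH 7.4 and 0.863 ± 0.427 FPM at pH 6.0 (SD, n = 4). The log2 fold change was 2.13 (SE 0.683) and the adjusted p was 0.0165 in edgeR and 0.0128 in DESeq2, so Asic3 was not a DEG. It passed the threshold without library 2 (log2 fold change 2.99, adjusted p = 0.00744) or without library 3 (2.41, adjusted p = 0.00886). Without library 2 the controls held 5, 0 and 2 counts, so Asic3 passed the filter there through the pH 6.0 libraries alone. Without library 3, the remaining pH 6.0 libraries, with 28, 25 and 21 counts, were enough for the filter by themselves. Library 3 was also the pH 6.0 library that lay between controls. Neither call is therefore separate support for a rise. The values differed between the second numbers, with a log2 fold change of 1.12 within 21 and 4.32 within 22, and over all alternatives the adjusted p lay between 0.00744 and 0.262. In NRK-49F, Asic3 had 4 counts over the group at pH 7.4, all in library 10, and 10 counts at pH 6.0, with overlapping groups and an exact permutation p of 0.257 (n = 4 against 4).

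Asic4, a family member that does not open to protons by itself, was found in both lines and its pH groups overlapped. In NRK-52E it had 1.04, 1.16, 1.22 and 1.53 FPM in libraries 1, 2, 5 and 6 at pH 7.4, and 1.22, 2.24, 1.56 and 1.68 FPM in libraries 3, 4, 7 and 8 at pH 6.0. The log2 fold change was 0.46 (SE 0.263, adjusted p = 0.142), within 2 SE of 0. In NRK-49F it had 0.462, 0.204, 0.265 and 0.279 FPM in libraries 9, 10, 13 and 14 at pH 7.4, and 0.311, 0.133, 0.452 and 0.218 FPM in libraries 11, 12, 15 and 16 at pH 6.0. A pH difference in NRK-49F was not detectable at this depth, with 23 and 30 counts over the groups, a ratio of 1.0 (95% exact counting interval 0.562 to 1.80) and an exact permutation p of 0.800 (n = 4 against 4). Asic2 had no count in any of the 16 libraries. Asic5, which is related to these channels and is not among the 7 members, had 6 counts over NRK-52E at pH 7.4 and none elsewhere.

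The lines were compared at each pH to ask where each gene is higher, with the limit that the line and its support (filter insert or well bottom) cannot be told apart. At pH 7.4, 33.3% of the 14026 genes tested were higher in NRK-52E and 33.3% lower; with library totals, 6375 DEGs were higher and 3323 lower, in place of 4666 and 4670. Both members that passed the filter were higher in NRK-52E. Asic4 had 4 to 8 counts per NRK-49F library at pH 7.4 and did not pass the filter within NRK-49F, so its passing here depended on NRK-52E. The shared direction is therefore not a result about the members. From the summed counts, Asic1 was 2.56-fold higher (log2 fold change 1.47, SE 0.168, adjusted p = 8.98e-06) and Asic4 4.13-fold higher (log2 fold change 2.11, SE 0.316, adjusted p = 8.50e-05), in each case with no overlap between the lines. With the second number as a covariate, Asic4 had a log2 fold change of 2.05 and was no longer a DEG (adjusted p = 0.00399 in edgeR and 0.0181 in DESeq2), and within number 21 it was also 2.05 (0.00937 and 0.0775). Its adjusted p over all alternatives lay between 3.15e-05 and 0.00937 in edgeR and between 1.96e-07 and 0.0775 in DESeq2.

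At pH 6.0, 28.6% of the 13796 genes tested were higher in NRK-52E and 31.2% lower. With library totals the balance turned to 4556 higher and 3734 lower, in place of 3939 and 4311. Asic4 was higher in NRK-52E (log2 fold change 2.51, SE 0.392, adjusted p = 9.83e-05), and it missed the threshold in DESeq2 within number 21 (log2 fold change 2.37, adjusted p = 0.0107). It had 2 to 14 counts per NRK-49F library at pH 6.0 and did not pass the filter within NRK-49F. Its passing here thus depended on NRK-52E, where it is high, and the call is no separate support for a difference. The lines overlapped for Asic1, whose log2 fold change was 0.66 (SE 0.365, adjusted p = 0.122), so a difference between the lines in acidic medium was not shown for it. Asic3 had 78 counts in NRK-52E and 10 in NRK-49F, a ratio of 9.17 (95% exact counting interval 4.73 to 19.9), and the exact permutation p was 0.0571 because library 3 lay among the NRK-49F libraries (n = 4 against 4). It passed the filter and was a DEG when library 3, 11, 12 or 16 was left out, with log2 fold changes between 2.47 and 3.57. In these fits Asic3 passed through NRK-52E alone, where it is high, since no NRK-49F library at pH 6.0 had more than 5 counts. These calls are therefore no separate support for a difference. It passed the filter and was not a DEG without library 15 (2.60, adjusted p = 0.0153) and in the fit of all 16 libraries (3.0, adjusted p = 0.00357 in edgeR and 0.0138 in DESeq2). Without any filter it was also a DEG, with a log2 fold change of 2.95 (SE 0.760, adjusted p = 0.00255). At pH 7.4 the counts of Asic3 were 18 and 4, with an exact permutation p of 0.257 (n = 4 against 4).

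Whether the pH effect differed between the lines was tested as an interaction over the 16 libraries, where 36.9% of 14679 genes were called. With library totals 1825 of these calls were positive and 3582 negative, in place of 2837 and 2574. For the 3 members that passed the filter, the difference of NRK-52E minus NRK-49F in log2 fold change was -0.74 for Asic1 (SE 0.388, adjusted p = 0.121), 1.17 for Asic3 (SE 1.78, adjusted p = 0.612) and 0.49 for Asic4 (SE 0.523, adjusted p = 0.460). The number called was 0 in edgeR and 0 in DESeq2, and at an unadjusted p below 0.05 in edgeR it was also 0. A difference between the lines in the fall of Asic1 was therefore not shown. The value for Asic3 turned to -2.20 without library 10, which holds all its counts in NRK-49F at pH 7.4.

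By Pearson's r of log2(FPM + 1) over the 16 libraries, among 12535 other genes with a symbol, the genes most like Asic1 were Apcdd1 (r = 0.973), Pcdhb19 (r = 0.967) and Sv2a (r = 0.963). The mean level of Apcdd1 was 92.4 FPM in NRK-52E at pH 7.4, 6.25 FPM at pH 6.0, 17.0 FPM in NRK-49F at pH 7.4 and 2.43 FPM at pH 6.0, the same order of groups as for Asic1. Those most like Asic4 were Myl9 (r = 0.966), Nlrp3 (r = 0.966) and Zscan18 (r = 0.961), and those most like Asic3 were Lss (r = 0.892), Rab9b (r = 0.888) and Rec8 (r = 0.875). These values describe 16 libraries that fall into 4 groups and share depth and line. With Spearman's rank correlation in place of r, 0 of the 3 genes were shared for each of these members, so the names depend on the measure.

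Of the 7 members, the proton-sensing receptors Gpr65 and Gpr132 lie on chromosome 6 and Gpr4 on chromosome 1, and Asic1, Asic2, Asic3 and Asic4 lie on chromosomes 7, 10, 4 and 9. In the RefSeq annotation of the GRCr8 build, no other gene overlapped Asic1, Asic3, Gpr4 or Gpr132, while 2 uncharacterised loci overlapped Asic4, Galc overlapped Gpr65, and 10 loci overlapped Asic2. The counting options named in the methods include none for strand, and how fragments in overlapping loci were assigned was not examined. Asic1 was the member that fell in both lines, so its promoter is shown. The 250 bases before its RefSeq start (GRCr8, chr7:132678457-132678706, plus strand) are given with the GC box GGGCGG in capitals. The counts were made on rn6, and which start site the cells use was not measured.
Asic1: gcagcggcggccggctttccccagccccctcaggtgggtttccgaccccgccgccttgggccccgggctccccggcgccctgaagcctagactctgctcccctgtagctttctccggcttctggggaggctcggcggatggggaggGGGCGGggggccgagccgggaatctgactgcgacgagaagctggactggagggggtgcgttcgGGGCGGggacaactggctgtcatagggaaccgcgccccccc
The window had 72.8% G and C, against a median of 51.2% over 33469 promoter windows of the same length. GGGCGG, searched on both strands, was found at 2 places, and 30.5% of all windows hold it. The cAMP response element TGACGTCA and its core TGACG, which overlaps it, were not in this window on either strand, while 1.59% and 18.2% of all windows hold them.

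Proteins that bind acid-sensing channels were taken from a list of 7 genes, of which 5 passed the filter in each line. In NRK-52E 1 rose, 2 fell and 2 were not DEGs, with a median log2 fold change of -0.066 beside 0.0014 over all genes tested. Of all genes tested, 28.2% were higher and 28.5% lower in NRK-52E, and 18.4% and 19.4% in NRK-49F. These shares also stand beside the DEG counts of the lists below, and no list was tested as a set. Stom, the membrane protein stomatin that modulates these channels, rose from 71.5 ± 8.41 to 350 ± 74.0 FPM (SD, n = 4; log2 fold change 2.30, SE 0.16). Akap5, a scaffold that holds kinases and calcineurin at the membrane, fell from 104 ± 24.0 to 25.8 ± 8.91 FPM (log2 fold change -2.0, SE 0.26). Pick1, a PDZ protein that binds the channel tail, fell with a log2 fold change of -0.62 (SE 0.14). In NRK-49F 3 of 5 fell, with a median of -0.99 beside -0.0029. Stoml1 fell by 1.59 on the log2 scale (SE 0.12), S100a10, with the highest FPM of the list there, from 679 ± 103 to 237 ± 70.2 FPM (log2 fold change -1.52, SE 0.19), and Stom from 103 ± 7.65 to 55.9 ± 1.20 FPM (log2 fold change -0.88, SE 0.08). Stom therefore moved in opposite directions in the lines, and its interaction was 3.17 (SE 0.185, adjusted p = 7.15e-10).

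**Figure D2:**
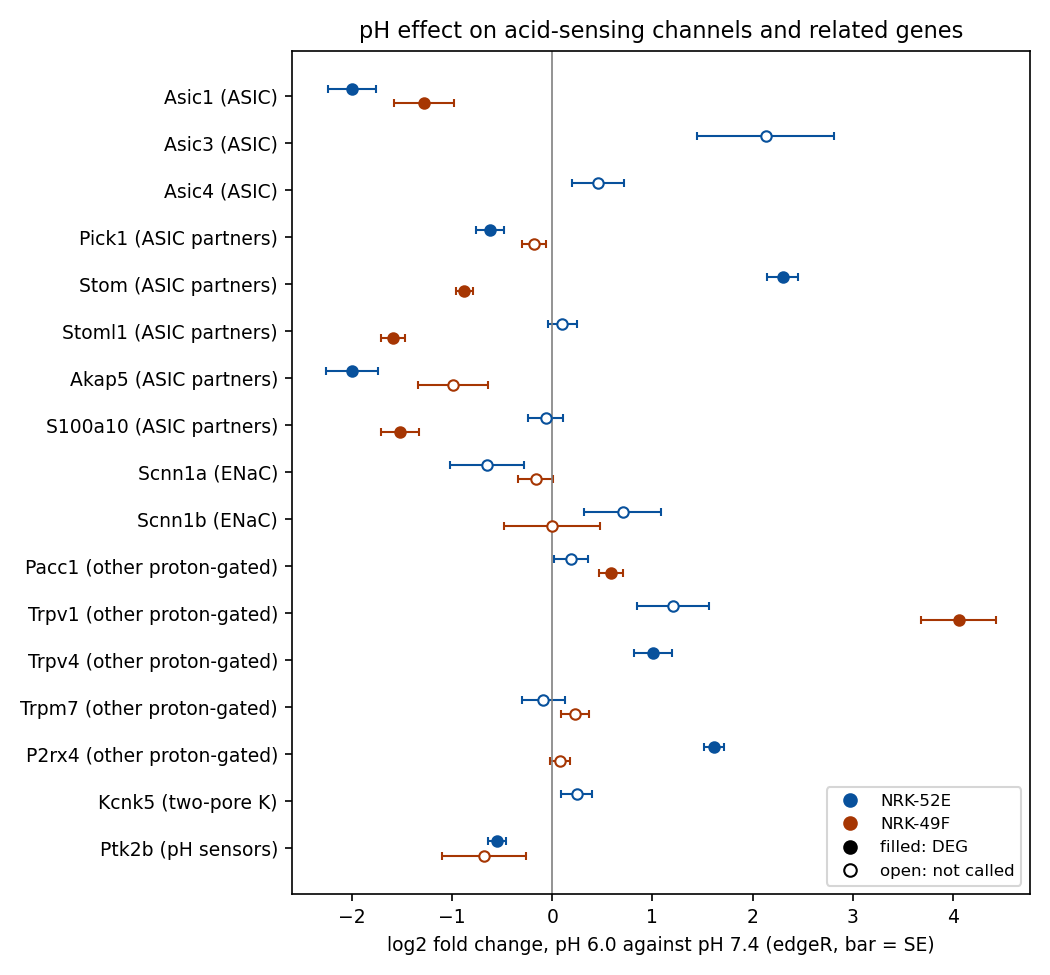
The x axis gives the log2 fold change at pH 6.0 against pH 7.4 of acid-sensing channels, their partner proteins, sodium channel subunits, other channels opened or modulated by protons, a potassium channel of the KCNK family and a pH-sensing kinase, for each gene that passed the filter in NRK-52E (blue) or NRK-49F (brown), with the SE from edgeR as bar. Filled points are DEGs; Asic1 lies left of 0 in both lines, Stom lies at 2.30 (NRK-52E) and -0.88 (NRK-49F), while Trpv1 lies at 4.06 for NRK-49F.

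Among the subunits of the epithelial sodium channel, the relatives of the acid-sensing channels, Scnn1a had the highest FPM, at 1.20 FPM (pH 7.4) and 0.749 FPM (pH 6.0) in the epithelial line, against 7.49 and 6.68 FPM in the fibroblast line. Its log2 fold changes were -0.65 (SE 0.37) and -0.17 (SE 0.17), and neither was a DEG. Of 12 other channels that protons open, pass through or modulate, 5 passed the filter in NRK-52E, where 2 rose. These were P2rx4, an ATP-gated channel inhibited by acid, from 29.1 ± 1.71 to 88.4 ± 7.86 FPM (log2 fold change 1.61, SE 0.10), and Trpv4 from 3.98 ± 0.558 to 7.92 ± 1.30 FPM (SD, n = 4; log2 fold change 1.0, SE 0.19). Trpv4 lost its call within each second number. In NRK-49F 4 passed and 2 rose. Trpv1, the capsaicin receptor that protons also open, went from 0.254 ± 0.184 to 4.05 ± 0.610 FPM (log2 fold change 4.06, SE 0.37), and Pacc1, the proton-activated chloride channel, had a log2 fold change of 0.59 (SE 0.12). The highest FPM of this list were those of Trpm7 in NRK-52E (log2 fold change -0.09) and P2rx4 in NRK-49F (log2 fold change 0.08), neither a DEG.

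Of 8 KCNK potassium channels that respond to pH, Kcnk5 was the only one to pass the filter in a pH comparison, in NRK-52E, with 16.7 ± 0.540 FPM at pH 7.4 and 19.7 ± 3.92 FPM at pH 6.0 (log2 fold change 0.24, SE 0.15), and it had no count in NRK-49F. There Kcnk4 had 0.297 and 0.425 FPM. Of 4 other pH sensors, Ptk2b, a kinase known to respond to acid in the proximal tubule, fell in NRK-52E from 179 ± 9.27 to 121 ± 11.2 FPM (SD, n = 4; log2 fold change -0.55, SE 0.09). It lost this call when all 16 libraries were fitted together and within number 22. In NRK-49F it had 3.26 and 1.97 FPM and was not a DEG. Casr, the calcium-sensing receptor, had no count.

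Downstream of Gpr4 and Gpr65 stands the Gs and cAMP arm, with 22 listed genes. In NRK-52E 16 passed the filter, of which 1 rose and 6 fell, with a median log2 fold change of -0.33 beside 0.0014 over all genes. Gnai3, an inhibitory G protein subunit, rose with a log2 fold change of 0.55 (SE 0.08). The adenylyl cyclase Adcy4 fell by 2.58 on the log2 scale (SE 0.31), the kinase subunit Prkar2b by 2.1 (SE 0.28) and Rapgef3, the cAMP-activated exchange factor Epac1, by 1.95 (SE 0.10), the last from 204 ± 13.1 to 52.3 ± 5.50 FPM (SD, n = 4). Adcy6 had the highest FPM of the list in NRK-52E, with 243 and 266 FPM. The entry of Gnas, which encodes the Gs subunit itself, held mean levels of 0.716 and 0.663 FPM in the epithelial line, against 0.247 and 0.491 FPM in the fibroblast line. Whether this entry holds all fragments of the gene was not tested, so the level of Gs is not read from it.

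In NRK-49F 17 genes of this arm passed, of which 3 rose and 3 fell, with a median of 0.23 beside -0.0029. Prkar1b had a log2 fold change of 3.15 (SE 0.46) from a low level of 0.204 FPM, Prkar2a rose by 1.47 (SE 0.21) and Gnai1 by 0.66 (SE 0.17). Adcy4 fell by 2.18 (SE 0.44), Adcy5 by 1.46 (SE 0.33) and Rapgef3 by 1.08 (SE 0.17) on the same scale. Gnai1 lost its call when library 9, 11, 13 or 15 was left out (log2 fold changes 0.55 to 0.63) and in the fit of all 16 libraries, and Adcy5 when library 14 was left out (-1.30). Adcy5 also fell in NRK-52E, from 58.8 ± 6.66 to 18.2 ± 1.74 FPM (SD, n = 4; log2 fold change -1.68, SE 0.12). Rapgef3, Adcy4 and Adcy5 were thus DEGs with a fall in both lines, and of these the interaction was called for Rapgef3. The highest FPM of the arm in NRK-49F was that of Gnai2, with 513 and 386 FPM, which was not a DEG.

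Phosphodiesterases that break down cAMP made up a list of 10 genes, of which 7 passed the filter in each line. In NRK-52E 4 of 7 fell, beside 28.5% lower of all genes tested, and the other 3 were not DEGs. The median log2 fold change was -0.67 beside 0.0014 over all genes. Pde3a fell by 2.79 (SE 0.60), Pde4a by 1.93 (SE 0.32) and Pde4d by 1.62 (SE 0.25), each from a level of 1.25 to 2.28 FPM, and Pde3a had -3.63 without library 4. Pde7a, with the highest FPM, fell from 49.8 to 37.6 FPM (log2 fold change -0.39), and this call was lost when library 2, 3, 4, 5, 6 or 7 was left out (-0.43 to -0.38), with the second number as a covariate and within each number. In NRK-49F 1 rose (Pde3b, log2 fold change 0.87, SE 0.13) and 2 fell (Pde4b, -1.78, SE 0.24, and Pde7a, -0.63, SE 0.11), with a median of -0.076. The highest FPM there was that of Pde8a, with 39.1 and 35.4 FPM.

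Of 12 genes known to respond to cAMP and CREB, 9 passed in NRK-52E, where 3 rose and 2 fell (median 0.31), and 10 passed in NRK-49F, where 1 rose and 2 fell (median -0.037). Nr4a2, a nuclear receptor of the immediate early kind, and Areg, the growth factor amphiregulin, went opposite ways in the lines. Nr4a2 rose by 1.54 (SE 0.22) in NRK-52E and fell by 0.75 (SE 0.18) in NRK-49F, whereas Areg fell by 2.17 (SE 0.37) in NRK-52E and rose by 0.80 (SE 0.20) in NRK-49F, all on the log2 scale. The NRK-49F calls were lost for Nr4a2 without library 10, 12 or 15 (-0.75 to -0.65) and for Areg without library 9, 10, 11, 12 or 14 (0.59 to 0.83) or in the fit of all 16 libraries. Also in NRK-52E, Per1 rose by 0.91 (SE 0.19) and Sik1 fell by 1.19 (SE 0.11). Dusp1, with the highest FPM there, had a log2 fold change of 0.50, with its call lost without library 2, 3, 4, 5, 6 or 7 (0.42 to 0.51) and with library totals. Crem fell by 0.56 (SE 0.14) in NRK-49F, with the call lost without library 9, 11, 12 or 16 (-0.56 to -0.53), and Sik1, with the highest FPM there at pH 7.4, was not a DEG (-0.21).

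The Gq and phospholipase C arm of G protein signalling had 14 listed genes, of which 12 passed in each line. In NRK-52E 5 fell, beside 28.5% lower of all genes tested, and the other 7 were not DEGs (median log2 fold change -0.84 beside 0.0014). The IP3 receptors Itpr2 and Itpr3 fell by 2.14 (SE 0.24) and 1.24 (SE 0.12), Itpr3 from 151 ± 19.0 to 63.5 ± 8.84 FPM (SD, n = 4). Plcb1 fell by 1.57 (SE 0.36) from 0.745 FPM, a call that was lost without library 2, 3, 5, 6, 7 or 8 (-1.64 to -1.39). In NRK-49F 2 rose and 1 fell (median -0.017), namely the protein kinases Prkca (log2 fold change 1.0, SE 0.14) and Prkcd (0.45, SE 0.09) and the phospholipase Plcb4 (-1.12, SE 0.13). Itpr3 had the highest FPM of the list at pH 7.4 in both lines, and it had a log2 fold change of 0.49 (SE 0.14) in NRK-49F, where it was not a DEG.

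Of 15 names of kinases, arrestins and regulators that switch receptors off, 13 were counted under these names. In NRK-52E 9 passed, of which 2 rose and 4 fell (median log2 fold change -0.98 beside 0.0014). Of all genes tested there, 28.2% were higher and 28.5% lower. The receptor kinases Grk4 and Grk2 rose by 1.23 (SE 0.19) and 1.09 (SE 0.13), and the regulator Rgs5 and the arrestins Arrb1 and Arrb2 fell by 2.60 (SE 0.30), 1.63 (SE 0.19) and 1.51 (SE 0.18). Arrb1 went from 60.3 ± 7.08 to 19.3 ± 5.32 FPM (SD, n = 4). In NRK-49F 8 passed and 1 rose, Grk2, from 116 ± 14 to 167 ± 23.0 FPM (log2 fold change 0.53, SE 0.12), which had the highest FPM of the list in both lines.

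Markers of the other cell types in which these receptors and channels are best known had few or no counts, with named exceptions. Of 10 neuronal markers, Stmn2 had no count in any library and 9 had a mean below 1 FPM in NRK-52E, where the summed level lay between 0.942 and 1.68 FPM at pH 7.4 and between 2.56 and 6.86 FPM at pH 6.0. The difference was carried by Tubb3, which rose from 0.0913 ± 0.133 to 3.91 ± 1.60 FPM (SD, n = 4; log2 fold change 5.37, or 6.82 without library 1). In NRK-49F, Map2 had 291 FPM at pH 7.4 and 309 FPM at pH 6.0 and made up most of a sum of 274 to 332 FPM, while Rbfox3, Elavl3, Elavl4 and Gap43 had no count. Syt1 fell there from 8.11 ± 1.38 to 1.61 ± 0.551 FPM (SD, n = 4; log2 fold change -2.32, SE 0.25). Of 9 endothelial markers, Kdr, Cldn5 and Emcn had no count in any library. The endothelial sum in NRK-52E was 36.5, 46.1, 45.1 and 43.6 FPM in libraries 1, 2, 5 and 6 at pH 7.4 and 6.98, 8.86, 7.42 and 8.61 FPM in libraries 3, 4, 7 and 8 at pH 6.0, nearly all of it Tek, which fell by 2.57 on the log2 scale (SE 0.14). In NRK-49F the endothelial sum was 7.54 to 9.87 FPM at pH 7.4 and 3.31 to 4.68 FPM at pH 6.0, mostly Vwf, which fell from 7.06 ± 1.14 to 2.78 ± 0.393 FPM (SD, n = 4; log2 fold change -1.34, SE 0.19). Tek in NRK-52E and Syt1 and Vwf in NRK-49F move with Asic1, and their part in the result was not tested.

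The other DEGs that the naming rule took from the marker lists changed as follows. Of the epithelial list in NRK-52E, Tjp3 rose by 1.32 on the log2 scale (SE 0.19), while Cdh1 fell by 2.31 (SE 0.35), Ocln by 2.11 (SE 0.12) and Krt19 by 1.63 (SE 0.34). In NRK-49F Krt8 fell by 2.06 (SE 0.10). Of the fibroblast list, Dcn, Postn and Pdgfrb fell in NRK-52E by 3.78 (SE 0.42), 2.37 (SE 0.23) and 1.53 (SE 0.16), and Col3a1, Lum and Pdgfrb fell in NRK-49F with log2 fold changes of -3.10 (SE 0.285), -2.06 (SE 0.44) and -2.01 (SE 0.21). Of the proximal tubule list, Slc5a2 and Slc3a1 fell by 3.44 (SE 0.60) and 1.84 (SE 0.305) in NRK-52E and by 3.04 (SE 0.54) and 0.86 (SE 0.195) in NRK-49F, where Ggt1 rose by 1.87 (SE 0.16). In NRK-49F the call was lost for Lum without library 13 (-1.92), whose value was -2.71 without library 16, and for Slc3a1 without library 10 (-0.80). Slc5a2 had -4.46 without library 4 in NRK-52E and -3.71 without library 15 in NRK-49F.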

How the data were processed

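Poly(A)-selected libraries were sequenced by a company at 2 × 150 bp and mapped by the authors to rn6 (by tophat2 in the methods, by HISAT2 2.1.0 in the submitters' processing notes). The authors used featureCounts on Ensembl exons, where a fragment with several places is counted at each of them, so near-identical copies share counts. The deposited values are raw counts, without normalization or filter.

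From these counts, FPM was computed in edgeR with TMM factors. Each comparison was fitted with edgeR 4.0.16 (quasi-likelihood test, filterByExpr) and DESeq2 1.42.0 (Wald test) in R 4.3.3, 4 libraries against 4, without covariates. SE is |log2 fold change|/√F. Members outside the filter had a 2-sided exact permutation test in scipy 1.17.1. The code was tested on simulated data. No library was left out.

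Members and lists were chosen with earlier results of these data known. Of each list, up to 3 DEGs with the largest rise and 3 with the largest fall whose pH groups do not overlap were named, with the gene of highest FPM. The alternatives were other scalings, filters, tools, thresholds and designs, and each library left out. Pecam1 was not analysed here.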

Additional observations from a re-analysis of the deposited data

Results flagged for a closer look

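A library far from the other 3 of its group, by Dixon's ratio at the 95% level, was found in 5 of the 19 sets of a member and group that held any count. All 5 were sets in which a single library had counts and the other 3 had none. These were Gpr4 in NRK-49F at pH 7.4 (library 10, 0.102 FPM from 2 counts) and at pH 6.0 (library 15, 0.0323 FPM from 1 count), Gpr65 in NRK-52E at pH 6.0 (library 8, 0.0465 FPM from 1 count), Gpr132 in NRK-49F at pH 7.4 (library 9, 0.173 FPM from 3 counts) and Asic3 in NRK-49F at pH 7.4 (library 10, 0.204 FPM from 4 counts). Chance gives about 1 in 20 such sets. A set in which 1 library alone has counts always passes this test.

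A pH effect that differed between the lines was called for 38 of the 73 genes named by rule that had an interaction fit, and for 0 of the 3 members fitted. Most of these genes were picked for a large change with pH, so their share is not set against the 36.9% of all genes tested. The values below are the log2 fold change in NRK-52E minus that in NRK-49F, from edgeR.

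Among the partners of the channels it was 3.17 for Stom, 1.67 for Stoml1 and 1.44 for S100a10, and among the other channels that protons open or modulate 1.5 for P2rx4 and -2.86 for Trpv1. In the Gs and cAMP arm it was 0.42 for Gnai3, -2.26 for Prkar2b, -0.88 for Rapgef3, -3.61 for Prkar1b, -1.51 for Prkar2a and 0.51 for Gnai2. The phosphodiesterases Pde4a, Pde4d and Pde3b had -2.25, -1.97 and -0.80. Values of both signs thus occur within the cAMP arm.

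Of the cAMP response genes, Nr4a2 had 2.28, Per1 1.13, Areg -2.99 and Sik1 -0.99. In the Gq arm Itpr2 had -1.72, Itpr3 -1.74 and Prkca -0.90. Of the genes that switch receptors off, Grk4 had 1.29, Arrb1 -2.24 and Arrb2 -1.25.

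The marker genes were Cd68 (-1.12), Tek (-2.34), Vwf (1.62), Tubb3 (6.55), Tjp3 (1.93), Cdh1 (-7.66), Ocln (-5.88), Krt8 (1.58), Dcn (-2.91), Postn (-2.0), Col3a1 (1.83), Col1a1 (-0.82), Aqp1 (-1.33) and Ggt1 (-2.02). Cdh1 and Ocln had no count in NRK-49F at pH 7.4, so the size of their value depends on the prior count of the fit.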

How the results depend on the processing

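The pH effects of Asic1 and Asic4 in NRK-52E and the interactions of Asic1 and Asic4 kept their direction and their side of the threshold under all alternatives run, and so did Asic1 between the lines at each pH. Under library totals in place of TMM, the all-gene median of the log2 fold change was -0.21 in NRK-52E, 0.040 in NRK-49F, 0.34 between the lines at pH 7.4, 0.12 at pH 6.0 and -0.25 in the interaction. No member changed its direction or call by this.

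The number of members called moved as follows, while the calls among all genes moved too, so these moves are not results about the members. At an adjusted p below 0.05 it was 2 in NRK-52E (with Asic3), where 9447 of 13735 genes were called. Without a filter on low counts it was 2 in NRK-49F (with Gpr132; 5326 of 19879 genes), 3 between the lines at pH 7.4 (with Gpr4, log2 fold change 4.27, adjusted p = 0.00029 in edgeR; 10004 of 20768 genes) and 4 at pH 6.0 (with Gpr4, Gpr132 and Asic3; 8911 of 20495 genes). Within number 20 it was 0 in NRK-49F (4645 of 13379 genes), and with the second number as a covariate 1 between the lines at pH 7.4 (7398 of 14026 genes), with fewer libraries or degrees of freedom in both. NRK-52E has the numbers 21 and 22 and NRK-49F the numbers 20 and 21. Between the lines this covariate is therefore partly tied to the line, and the comparison rests on number 21. Within number 21 the count stayed the same with other members, as Gpr132 replaced Asic1 in NRK-49F, and Gpr4 (pH 7.4) or Gpr132 (pH 6.0) replaced Asic4 between the lines. In each of these fits the receptor had no count in the lower group and passed the filter through the higher group alone. Such calls are therefore no separate support for a difference. Leaving out libraries singly, the lowest and highest numbers were 1 and 2 for pH in NRK-52E, 0 and 1 for pH in NRK-49F, 2 and 2 between the lines at pH 7.4, 1 and 2 at pH 6.0, and 0 and 0 in the interaction. The interaction of Asic3 changed sign within number 21 (-0.87) and without library 10 (-2.20), against 1.17. Without single libraries it ran from -2.20 to 2.01, and it was not called in any fit.

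Of 72 pH effects of other named DEGs, examined under the same alternatives after the data were seen, none changed sign; 29 kept their call throughout and 43 lost it in at least 1 fit, often within a second number, where 2 libraries stand against 2. The library numbers are not shared between groups. The pH groups of a line share their second numbers, whose meaning is not given, so these were taken as a block in an alternative only. As a block they gave 7551 DEGs in NRK-52E, in place of 7800, and 5208 in NRK-49F, in place of 5038, and changed no call of a member for pH. Of the other named DEGs, Pde7a in NRK-52E lost its call under the block. Over 14679 genes, the difference between the numbers at pH 7.4 correlated with that at pH 6.0 at -0.146 (NRK-52E) and 0.0624 (NRK-49F). The order of members by level per length was not run, since no exon lengths of this build were used here.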

Other observations

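Of the 7 members, 5 had under 100 counts over every group. Protein levels, currents, intracellular pH and cAMP were not analysed here. The series has a single line of each cell type on its own support, a single time of 48 h and a single acidic pH, so time course, dose and cell type were not tested. What the second number of the labels stands for is not known.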
